A study of Sus scrofa with 63 samples.

Results

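Skin sites of pigs exposed to sulfur mustard were compared with skin of sham animals, which were prepared in the same way and received no agent. All arrays labelled as sulfur mustard exposure (27) and all arrays labelled as sham (9) were taken by their titles, 36 of the 63 arrays of the series. The other 27 arrays, from unexposed sites of the exposed animals (control sites), did not enter this contrast and are set beside it where stated. Control and exposed sites lie on the same animals, which the p-values given for control sites do not take into account.

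The animals were female Yorkshire crossbred pigs, whose ages are not given in the sources used here. In exposed animals 400 µL of neat agent stayed on the depilated ventral abdomen for 8 min and gave lesions 3 cm wide. Punches of 8 mm came from 1, 2, 4, 24, 48, 72, 168, 336 and 514 h, with 3 exposed arrays and 1 sham array at each time (the design text gives the last time as 21 days). For each array 10 µg of total RNA was labelled, and the values are log2 signals of probe sets. The design names 4 animals at each time, 1 of them the sham, but the labels do not tie each array to an animal. The p-values therefore measure the spread between these samples only, and that spread comes from the exposed arrays, because a sham group of 1 array has none of its own.

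Sulfur mustard is an alkylating agent that modifies DNA and proteins and blisters skin after a delay. Injured skin switches on immediate early transcription factors and releases chemokines that draw in neutrophils and monocytes. DNA lesions activate p53 and its target genes, and the epidermis, which is made of keratinocytes that form a cornified layer, has to be rebuilt from surviving cells.

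The histology scores in the labels were 0 on all exposed and all sham biopsies at 1 and 2 h. At 4 h the only scores above 0 were dermal necrosis of 1 in each of the 3 exposed biopsies and follicular damage of 1 in 1 of them. From 24 to 72 h epidermal necrosis scored 3 or 4 and dermal necrosis 4 in every exposed biopsy, against 0 in every sham biopsy. From 168 h the labels use other items, and their total was 5 to 10 in exposed biopsies and 13 in each sham biopsy. Each control site also had a total of 13, so on these items unexposed skin had the higher total, unlike the earlier scores. Re-epithelialization was recorded as complete in 0 of 3 exposed biopsies at 168 h, in 1 of 3 at 336 h and in 3 of 3 at 514 h, and in every sham biopsy.

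Array medians lay between 7.746 and 7.862. Precision is set by how many arrays each group has. Sham skin held the defining transcripts of epidermis and dermis: KRT1 and KRT10, keratins of differentiated keratinocytes, had medians of 14.22 and 14.26, and the fibroblast proteoglycan gene DCN 13.95. Of the melanocyte genes measured, TYRP1 was near the bottom of the scale (median 4.417 in exposed and 4.428 in sham skin), TYR had medians of 7.199 in exposed and 7.081 in sham skin, and MITF, which other cells also express, 8.515 in exposed and 8.683 in sham skin. Skeletal muscle RNA varied widely between punches. The mean log2 signal of 27 muscle genes averaged 9.89 ± 2.11 in exposed and 9.28 ± 1.77 in sham arrays (SD, n = 27 and 9), a difference of 0.609 with p = 0.275 in a two-sided exact permutation test within times. With all arrays 0 of the 27 muscle genes passed the threshold in each window (at most 4 did when 1 array was left out), and 1, 5 and 1 had an unadjusted p under 0.05 in limma at 1 to 4 h, 24 to 72 h and 168 to 514 h. The 3 prime to 5 prime signal differences of GAPDH, actin and EF1A had adjusted p of 0.253, 0.99 and 0.99 in the same exact test. In biopsies of whole skin, fewer cells of a type and less RNA per cell cannot be told apart.

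Early, a small set of genes stood higher in exposed skin, then a large part of the transcriptome moved, and a smaller part still differed in the last window. With limma and an adjusted p under 0.05, 300 of 23999 probe sets (1.25%) differed from sham over 1 to 4 h, of which 171 were higher and 129 lower. Over 24 to 72 h 6793 probe sets (28.3%) differed, 3348 higher and 3445 lower. Over 168 to 514 h 2468 (10.3%) differed, 1322 higher and 1146 lower. With the sacrifice day as a factor (9 residual degrees of freedom), 866 probe sets passed at 1 to 4 h (395 higher and 471 lower) and 885 at 168 to 514 h (522 higher and 363 lower). A sham array shared that day with the 3rd exposed array of its time at 8 of 9 times and never with the others. Differences in that fit therefore rest on the 3rd exposed array against the sham array of each time, and 24 h is left out. Taken singly, with 1 sham array each, the times of 1, 2 and 4 h gave 9 (0.0375%), 30 (0.125%) and 209 (0.871%) probe sets. Those of 24, 48 and 72 h gave 3166 (13.2%), 2288 (9.53%) and 1610 (6.71%), and those of 168, 336 and 514 h gave 2652 (11.1%), 185 (0.771%) and 92 (0.383%). Leaving out a sham array takes its whole time out of the comparison, so the weight of the array and of the time cannot be told apart. In the early window 441 probe sets passed without the sham array of 1 h, 140 without that of 2 h and 75 without that of 4 h. In the late window 692 passed without the sham array of 168 h and 1635 without that of 336 h, and over 24 to 72 h 4521 passed without the sham array of 24 h. Differences of at least 2-fold made up 71 of these probe sets at 1 to 4 h (0.296%), 824 at 24 to 72 h (3.43%) and 313 at 168 to 514 h (1.3%).

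**Figure D1:**
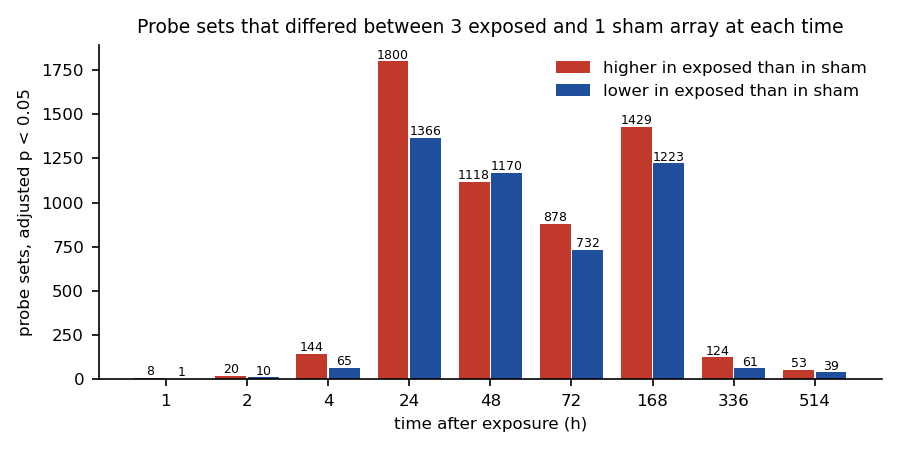
Probe sets with an adjusted p under 0.05 by limma (y axis, number) at each time (x axis, hours), as 1 bar for those higher and 1 bar for those lower in exposed than in sham skin, with 3 exposed arrays against 1 sham array a time. The counts lie at 9 to 209 up to 4 h, at 1610 to 3166 from 24 to 168 h and at 185 and 92 in the last times.

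The following values are for 1 probe set a gene, over 6765 genes, of which 71 were higher (1.05%) and 19 lower (0.281%) at 1 to 4 h (1.33% in all), 1753 higher and 767 lower at 24 to 72 h (37.3%), and 597 higher and 320 lower at 168 to 514 h (13.6%). The median gene differed by 0.01, 0.07 and 0.04 on the log2 scale in these windows. Exposed and sham arrays did not overlap in 99 genes (1.46%) in the early, 1198 (17.7%) in the middle and 342 (5.06%) in the late window. Each difference below is exposed minus sham on the log2 scale with its standard error, and adjusted p-values are from limma over all probe sets.

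A few genes separated exposed from sham skin over the whole course. Averaged over the 9 times, 6966 probe sets (29.0%) differed from sham, 219 of them (0.913%) by at least 2-fold. Of the 6765 genes 1671 were higher (24.7%) and 856 lower (12.7%) in exposed skin (37.4% in all), and in 5 genes (0.0739%) no exposed array lay within the range of the sham arrays. These 5 were picked out after their values were seen. They were the monocyte chemokine gene CCL2, the chemokine gene CCL3L1, the cytokine gene IL6 and the DNA damage response gene GADD45A, all higher, and MYCBP2, which encodes a ubiquitin ligase and was lower.

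CCL2 had a lowest signal of 10.2, a median of 11.99 and a highest of 13.21 in exposed skin, against 8.92, 9.67 and 10.13 in sham skin. Its difference was 2.37 ± 0.12 (5.17-fold, adjusted p = 3.74e-11). The exposed arrays of 514 h were the closest to sham, at 10.64, 10.20 and 10.30 against 10.11 at that time. By window the CCL2 difference was 2.22 ± 0.20 at 1 to 4 h, 3.06 ± 0.20 at 24 to 72 h and 1.83 ± 0.20 at 168 to 514 h, all past the threshold.

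GADD45A, induced by p53 and other stress signals, spanned 10.1 to 11.98 with a median of 10.98 in exposed skin, against 9.32 to 9.861 with a median of 9.543 in sham skin (1.40 ± 0.11, adjusted p = 3.41e-08). IL6 spanned 6.36 to 9.783 in exposed and 6.005 to 6.349 in sham skin (1.64 ± 0.23, adjusted p = 1.58e-05). CCL3L1 spanned 7.997 to 12.5 in exposed and 7.277 to 7.981 in sham skin (1.54 ± 0.21, adjusted p = 1.40e-05). For IL6 and CCL3L1 the lowest exposed array lay only just above the highest sham array. MYCBP2 spanned 10.04 to 11.25 in exposed and 11.26 to 11.64 in sham skin, a difference of -0.57 ± 0.09 (adjusted p = 4.67e-05).

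Other genes kept 1 direction at all 9 times although their arrays overlapped. The neutrophil chemokine gene CXCL2 was higher by 3.17 ± 0.26 (adjusted p = 4.48e-08), the chemokine gene CCL8 by 2.06 ± 0.16 (adjusted p = 1.60e-08) and the glucose transporter gene SLC2A3 by 1.97 ± 0.21 (adjusted p = 7.88e-07). SLC2A3 ranged over 8.465 to 12.48 in exposed skin and 7.985 to 8.619 in sham skin. Lower at all 9 times were SULT1E1, the estrogen sulfotransferase gene, by -2.47 ± 0.21 (adjusted p = 7.42e-08), and GATA3, a transcription factor gene of the epidermis, by -1.46 ± 0.11 (adjusted p = 1.67e-08). The nuclear receptor gene RORA differed by -1.31 ± 0.10 (adjusted p = 9.84e-09), the epithelial chemokine gene CCL28 by -1.69 ± 0.19, and FGFR2, a receptor for keratinocyte growth factors, by -0.95 ± 0.10.

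**Figure D2:**
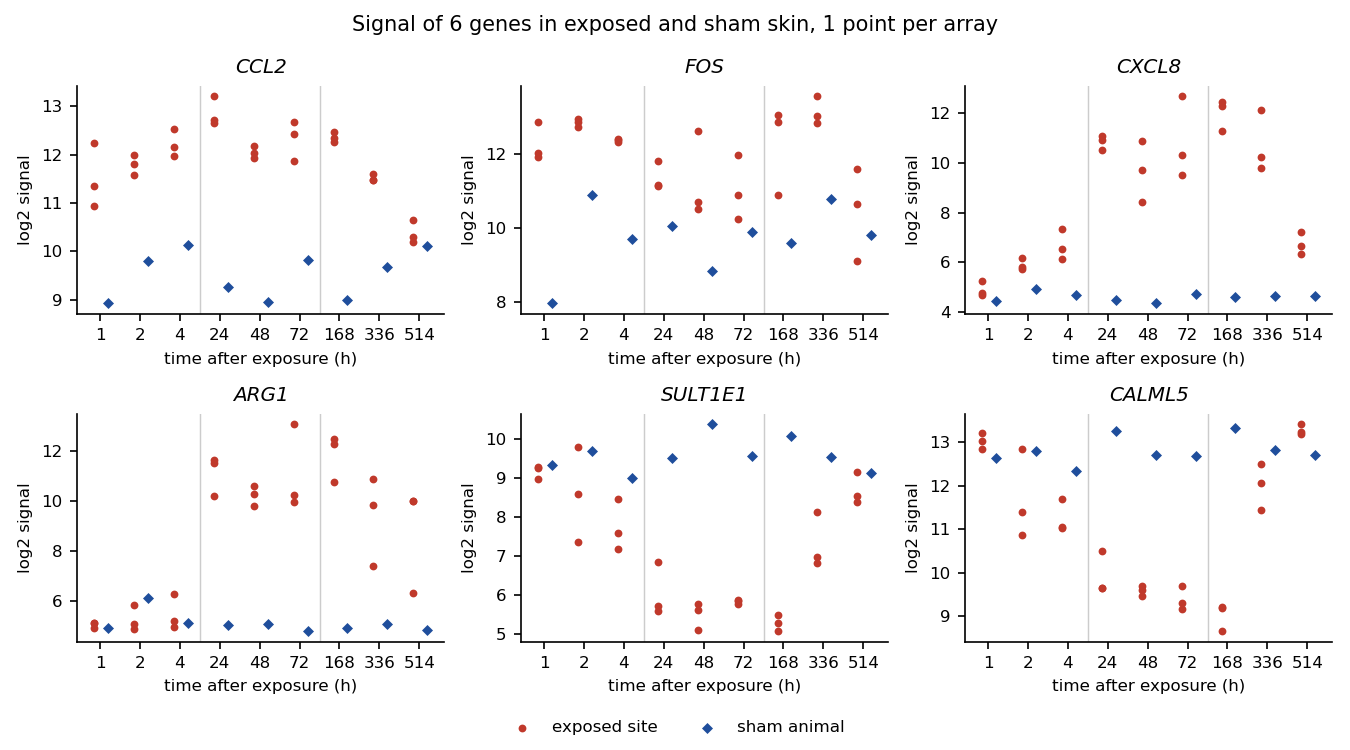
Log2 signal (y axis) of CCL2, FOS, CXCL8, ARG1, SULT1E1 and CALML5 in every exposed and every sham array at the 9 times (x axis, hours), exposed left of sham, 1 point per array. CCL2 points of exposed skin lie above all sham points, CXCL8 and ARG1 points of exposed skin lie well above sham at 24 to 336 h, and SULT1E1 and CALML5 lie below sham from 24 to 72 h.

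In the first hours the genes that rose included many of the immediate early response and several chemokines. Of 19 immediate early transcription factors and their brakes measured, 13 were higher and 0 lower at 1 to 4 h, with a median difference of 1.42, against 71 genes higher of 6765 (1.05%) and a median of 0.01 over all genes. Without the sham array of 1 h 8 of the 19 passed. Of 23 inflammatory cytokines and chemokines 7 were higher (median 0.49), and 4 without the sham array of 2 h. Of 20 inflammatory receptors, adhesion molecules and enzymes 3 were higher (SELE, ICAM1 and PTGS2), and 0 without the sham array of 4 h.

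CYR61, a matricellular gene induced within minutes by growth and stress signals, had the largest early rise among the named genes. Its signals were 10.82 to 13.24 with a median of 12.12 in exposed skin, against 8.95, 9.20 and 9.14 in sham skin at 1, 2 and 4 h. Every exposed array lay above the sham arrays, and the difference was 3.04 ± 0.39 (8.23-fold, adjusted p = 0.000118).

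EGR1, a zinc finger transcription factor gene, had 10.36 to 12.0 in exposed skin with a median of 11.32, against 7.62, 9.72 and 8.75 in sham skin. The sham array of 2 h was the highest sham array, and no exposed array fell below it. The EGR1 difference was 2.57 ± 0.40 (adjusted p = 0.00108). ATF3, a stress-induced transcription factor gene, had 8.154 to 9.901 in exposed skin and 6.87, 6.40 and 6.89 in sham skin, without overlap. Its difference was 2.49 ± 0.37 (adjusted p = 0.000651), and it remained past the threshold at 24 to 72 h (1.69 ± 0.37, adjusted p = 0.00149).

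FOS, which forms the AP-1 factor with JUN, was at 11.91 to 12.95 in exposed skin and at 7.97, 10.90 and 9.71 in sham skin at 1, 2 and 4 h. No exposed array overlapped the sham arrays, whose lowest value was that of 1 h. The FOS difference of 2.97 ± 0.49 (adjusted p = 0.00213) was 2.31 with adjusted p = 0.0501 without the sham array of 1 h. JUN rose by 1.52 ± 0.17 (adjusted p = 3.22e-05), the early response gene IER5 by 1.52 ± 0.12 (adjusted p = 2.41e-07) and MYC by 1.10 ± 0.15 (adjusted p = 0.000271). Among the brakes, ZFP36, which destabilises cytokine messages, rose by 1.56 ± 0.24 (adjusted p = 0.000969). DUSP1, a phosphatase that switches off MAP kinases, rose by 1.52 ± 0.29 (adjusted p = 0.0066), but had adjusted p = 0.0877 without the sham array of 1 h.

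Of the early chemokines, CCL4, which attracts monocytes and T cells, was at 10.09 to 10.98 in exposed skin and at 7.65, 8.24 and 8.36 in sham skin (2.36 ± 0.37, adjusted p = 0.00125). CXCL2 was at 8.763 to 10.3 in exposed skin and at 6.27, 7.22 and 7.21 in sham skin (2.68 ± 0.46, adjusted p = 0.00288). CCL8 was at 9.234 to 11.29 in exposed skin and at 7.34, 7.95 and 8.78 in sham skin (2.22 ± 0.27, adjusted p = 7.83e-05). None of these 3 overlapped between exposed and sham arrays. CXCL8, the main neutrophil chemokine gene, did not pass at this stage (1.14, adjusted p = 0.4).

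IL6 and the prostaglandin synthase gene PTGS2 depended on the 4 h samples. IL6 differed by 1.81 ± 0.39 (adjusted p = 0.0214), with exposed values of 6.42 to 6.68 at 1 h and 8.83 to 9.76 at 4 h, and sham values of 6.11, 6.25 and 6.00. Without the sham array of 4 h, and so without that time, the difference was 1.05 with adjusted p = 0.607, and without that of 2 h adjusted p was 0.0909. PTGS2 differed by 1.89 ± 0.38 (adjusted p = 0.0123), and by 1.45 with adjusted p = 0.346 without the sham array of 4 h.

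Leukocyte markers had not passed the threshold at this stage. Of 21 neutrophil and macrophage markers 0 passed in limma and 0 had an unadjusted p under 0.05, with a median difference of 0.13. Of 13 lymphocyte markers 0 passed and 1 had an unadjusted p under 0.05, while all 13 were above 0, with a median of 0.38. The median of these 13 was 0.35 for control sites minus sham and 0.06 for exposed minus control sites. Of 24 targets of the oxidative stress factor NRF2 and metallothioneins 0 passed, also with 0 at an unadjusted p under 0.05.

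Genes of the GADD45 family, which respond to DNA damage and other stress, were higher in the first hours. Of 18 p53 targets 5 were higher at 1 to 4 h, with a median of 0.30, against 1.05% of all genes. But 1 passed without the sham array of 4 h, 3 without that of 2 h and 3 without the 3rd exposed array of 1 h. GADD45G, a stress gene of the same family that was not on that list, was at 11.25 to 12.45 in exposed skin and at 10.66, 9.84 and 10.03 in sham skin (1.76 ± 0.21, adjusted p = 6.82e-05), without overlap. GADD45A differed by 1.39 ± 0.20 (adjusted p = 0.000405), and by 1.06 with adjusted p = 0.0712 without the sham array of 4 h. GADD45B differed by 1.47 ± 0.26 (adjusted p = 0.00374). CDKN1A, the p53 target that arrests the cell cycle, differed by 0.64 ± 0.15 (adjusted p = 0.0305).

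Among named genes the early falls were small. Of 6765 genes 19 were lower, and of 300 probe sets 129. With the sacrifice day as a factor the lower probe sets outnumbered the higher ones (471 lower and 395 higher). SHROOM2, a gene of cell shape, fell by 0.82 ± 0.14 on the log2 scale (adjusted p = 0.00246), FGFR2 by 0.77 ± 0.17 (adjusted p = 0.0234) and GATA3 by 0.79 ± 0.20 (adjusted p = 0.0482). All 3 missed the threshold without the sham array of 4 h, which takes that time out of the comparison. The differences were then -0.68 for SHROOM2 (adjusted p = 0.117), -0.58 for FGFR2 (adjusted p = 0.454) and -0.58 for GATA3 (adjusted p = 0.542). FGFR2 also missed the threshold without the sham array of 2 h (adjusted p = 0.0547), and GATA3 without any of 6 single exposed arrays or the sham array of 2 h (adjusted p = 0.056 to 0.174). Differentiated keratinocyte genes had not passed (0 of 9, 2 at an unadjusted p under 0.05, median -0.34).

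At 24 to 72 h, when the biopsies showed necrosis, exposed skin held far more RNA of the neutrophil chemokine gene CXCL8 and more of most myeloid markers, and less RNA of every measured gene of differentiated epidermis. Of 23 cytokines and chemokines 12 were higher and 1 lower (median 1.53; 0.96 without the sham array of 72 h), against 25.9% of all genes higher and 11.3% lower. Of 21 neutrophil and macrophage markers 17 were higher and 0 lower (median 1.66). All 9 genes of the differentiated keratinocyte and cornified envelope list were lower (median -1.93).

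CXCL8 was at 8.421 to 12.66 with a median of 10.52 in exposed skin, against 4.346, 4.492 and 4.729 in the sham arrays, which sit near the bottom of the scale. The lowest exposed array lay far above the highest sham array, and the difference was 5.92 ± 0.54 (60.5-fold, adjusted p = 1.57e-07). PPBP, a chemokine gene of platelets, was at 8.6 to 11.48 in exposed skin and at 4.99 to 5.20 in sham skin (4.87 ± 0.53, adjusted p = 1.25e-06), again without overlap. For probe sets this dim the RMA scale can be compressed, which was not measured here, so such folds are approximate. CXCL2 differed by 3.65 ± 0.46 (adjusted p = 6.02e-06) and CCL5 by 2.32 ± 0.37 (adjusted p = 7.12e-05). The exception in the list was CCL28, which fell by 2.86 ± 0.34 on the log2 scale (adjusted p = 2.90e-06).

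Receptors and adhesion molecules were also higher at 24 to 72 h. CCR1, a chemokine receptor of neutrophils and monocytes, rose by 3.37 ± 0.24 (adjusted p = 9.11e-09), TLR2, a receptor for bacterial lipoproteins, by 2.57 ± 0.32 (adjusted p = 5.54e-06), and the leukocyte adhesion genes ICAM1 and SELE by 1.99 ± 0.21 and 1.94 ± 0.24. In all 12 of 20 inflammatory receptors, adhesion molecules and enzymes rose and 0 fell, against 25.9% of all genes higher and 11.3% lower. PTX3, a secreted pattern recognition molecule, was at 11.39 to 13.45 in exposed skin and at 9.04, 8.48 and 8.91 in sham skin (3.70 ± 0.31, adjusted p = 6.33e-08).

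Among the myeloid markers, SLC11A1, a metal transporter of phagosomes, was at 9.301 to 10.88 in exposed skin, with a median of 10.08, and at 6.66, 6.53 and 6.98 in sham skin. These ranges lay well apart, and the difference was 3.36 ± 0.17 (adjusted p = 3.43e-11). S100A9, a calcium-binding protein abundant in neutrophils, was at 9.675 to 12.75 in exposed skin and at 6.91, 7.10 and 8.37 in sham skin (3.28 ± 0.55, adjusted p = 0.000123). The macrophage genes AIF1 and CD163 rose by 2.09 ± 0.16 (adjusted p = 1.98e-08) and 1.66 ± 0.27 (adjusted p = 9.53e-05). Lymphocyte markers moved less, with 5 of 13 higher (38.5%, against 25.9% of all genes) and a median of 0.68. CD8A rose by 1.00 ± 0.25 (adjusted p = 0.00455). Without the sham array of 72 h 0 of the 13 passed, and CD8A had adjusted p = 0.156. For the lymphocyte list control sites minus sham had a median of 0.43, with 0 of 13 past the threshold in limma. At an unadjusted p under 0.05 there was 1 of 13. Exposed minus control sites had a median of 0.21, and 1 of 13 passed, higher.

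The complement and acute phase list had 13 rises and 2 falls among 20 genes (median 0.62), against 25.9% of all genes higher and 11.3% lower. Without the sham array of 72 h it had 5 rises and 2 falls. C3, the central complement component, rose by 2.78 ± 0.31 (adjusted p = 1.61e-06) and CFB, a protease of the alternative pathway, by 2.30 ± 0.20 (adjusted p = 1.01e-07). CFB was at 8.54 to 10.37 in exposed skin and at 6.90, 6.83 and 7.58 in sham skin.

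ARG1, arginase, which breaks down arginine and is made by some macrophages, was at 9.801 to 13.06 in exposed skin with a median of 10.28, against 5.03, 5.06 and 4.79 in sham skin. No exposed array came near a sham array, and the difference was 5.85 ± 0.74 (57.5-fold, adjusted p = 6.19e-06). The sham signals lay near the lowest value of any array (4.053), so the fold is approximate. Other enzymes of amino acids and nucleotides rose with it, 8 of 13 in all, with 1 fall (25.9% of all genes rose and 11.3% fell). They included the serine dehydratase gene SDS (3.43 ± 0.62, adjusted p = 0.000274), the cytidine deaminase gene CDA (2.63 ± 0.33, adjusted p = 6.75e-06) and the polyamine enzyme gene ODC1 (1.58 ± 0.15, adjusted p = 3.44e-07).

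TNC, a matrix protein of wounds, was at 10.73 to 13.0 in exposed skin and at 7.79, 7.78 and 8.05 in sham skin (3.83 ± 0.35, adjusted p = 1.59e-07). The secreted phosphoprotein gene SPP1 rose by 2.74 ± 0.33 (adjusted p = 3.85e-06), while LOX, which cross-links collagen, fell by 1.15 ± 0.33 on the log2 scale (adjusted p = 0.0116). Of 13 matricellular and matrix genes 5 rose (38.5%) and 6 fell (46.2%), against 25.9% and 11.3% of all genes. The interstitial collagenase gene MMP1 differed by 3.10 ± 0.55 (adjusted p = 0.00024), with exposed values of only 5.85, 5.92 and 7.32 at 24 h. TIMP1, an inhibitor of such proteases, was at 13.26 to 14.16 in exposed skin and at 11.44, 10.90 and 11.60 in sham skin (2.32 ± 0.18, adjusted p = 2.33e-08). PLAU, urokinase, rose by 1.97 ± 0.18 (adjusted p = 1.57e-07).

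Genes of differentiated epidermis fell together. SERPINB7, a protease inhibitor of the upper epidermis, was at 6.038 to 7.64 in exposed skin and at 10.37, 11.41 and 10.70 in sham skin, a difference of -3.72 ± 0.29 (adjusted p = 2.92e-08). CALML5, a calmodulin-like protein of differentiating keratinocytes, was at 9.167 to 10.51 in exposed skin and at 13.25, 12.71 and 12.67 in sham skin (-3.24 ± 0.29, adjusted p = 1.29e-07). Both were lower in every exposed array than in any sham array. KRT1 was at 10.38 to 13.21 in exposed skin and at 14.14 to 14.3 in sham skin (-2.34 ± 0.29, adjusted p = 5.43e-06). SPINK5, the inhibitor of epidermal kallikreins, fell by 2.31 ± 0.25 on the log2 scale (adjusted p = 1.38e-06).

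Regulators and enzymes of the epidermis fell as well. SULT1E1 had the largest fall of any gene named for this window, at 5.105 to 6.847 in exposed skin and at 9.52, 10.39 and 9.58 in sham skin (-4.05 ± 0.37, adjusted p = 1.57e-07). GATA3 was at 7.82 to 8.584 in exposed skin and at 10.2 to 10.75 in sham skin (-2.32 ± 0.20, adjusted p = 6.09e-08). HOPX, a homeobox-like gene of the upper epidermis, fell by 2.25 ± 0.20 on the log2 scale. Of 5 basal keratinocyte and hemidesmosome genes 3 fell and 0 rose (11.3% of all genes fell). COL7A1, the collagen that anchors the basement membrane, differed by -1.22 ± 0.20 (adjusted p = 8.15e-05). STMN2, a stathmin gene known from neurons, was at 5.718 to 6.817 in exposed skin and at 8.52 to 9.332 in sham skin (-2.81 ± 0.35, adjusted p = 5.35e-06).

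Most of the p53 targets measured were higher in this window. Of 18 p53 targets 11 rose and 1 fell (median 0.63), against 25.9% of all genes higher and 11.3% lower. CDKN1A was at 11.17 to 12.7 in exposed skin and at 10.21 to 10.5 in sham skin (1.49 ± 0.15, adjusted p = 4.27e-07), and BAX, a gene of the mitochondrial death pathway, at 8.421 to 9.41 in exposed and 7.295 to 7.895 in sham skin (1.51 ± 0.17, adjusted p = 1.38e-06). Neither gene overlapped between the groups. DDB2, a p53 target of nucleotide excision repair, was the one that fell (-0.82 ± 0.15, adjusted p = 0.000293). DNA repair genes lay closer to the shares of all genes: of 18, 7 rose (38.9%) and 2 fell (11.1%), with a median of 0.19. Without the sham array of 48 h 3 rose and 0 fell. MGMT, which removes alkyl groups from guanine, was at 9.773 to 11.07 in exposed skin and at 9.14, 8.34 and 9.56 in sham skin (1.61 ± 0.15, adjusted p = 2.92e-07). PCNA, the sliding clamp of replication and repair, rose by 1.19 ± 0.08 (adjusted p = 6.83e-09). With the sacrifice day in the fit, which leaves out 24 h, it rose by 0.79.

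Of the 24 NRF2 targets and metallothioneins 12 rose and 2 fell. The heme oxygenase gene HMOX1 was at 11.55 to 12.64 in exposed skin and at 9.48, 9.30 and 9.62 in sham skin (2.56 ± 0.22, adjusted p = 6.33e-08). The mitochondrial superoxide dismutase gene SOD2 rose by 2.02 ± 0.23 and the quinone reductase gene NQO1 by 1.79 ± 0.26 (adjusted p = 1.79e-06 and 2.62e-05). The metallothionein genes MT1A and MT3 were the falls, with -1.41 ± 0.22 and -1.32 ± 0.24. Of 25 cell cycle genes 15 rose (60.0%) and 0 fell (median 0.33), but 7 rose without the sham array of 48 h and 8 rose and 1 fell without that of 72 h. TYMS, the thymidylate synthase, had the largest of these rises, at 2.11 ± 0.23 (1.16 over all its probe sets).

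At 168 to 514 h most of the measured neutrophil and macrophage markers and the genes of CXCL8, collagenase and arginase were still higher in exposed skin. Of the 21 neutrophil and macrophage markers 15 were higher and 0 lower (median 0.87), against 8.82% of all genes higher and 4.73% lower, but 5 without the sham array of 168 h. Of 23 cytokines and chemokines 8 were higher and 1 lower, and 4 and 0 without that array. Since leaving out the sham array of a time takes that time out of the comparison, these counts also show what 336 and 514 h gave alone.

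S100A9 was at 11.22 to 13.72 in exposed skin with a median of 12.63, against 7.65, 7.71 and 8.13 in sham skin. Its lowest exposed array lay above every sham array, and the difference was 4.76 ± 0.55 (27-fold, adjusted p = 3.00e-05). The related S100A8 and S100A12 rose by 1.80 ± 0.23 and 2.15 ± 0.34 (adjusted p = 7.17e-05 and 0.000411). LTF, lactoferrin, an iron-binding protein of neutrophil granules and epithelia, was at 10.71 to 12.73 in exposed skin and at 9.26, 7.89 and 10.30 in sham skin (2.50 ± 0.31, adjusted p = 5.13e-05). CXCL8 was at 6.344 to 12.42 in exposed skin with a median of 10.22, against 4.616 to 4.672 in sham skin (5.17 ± 0.54, adjusted p = 1.07e-05).

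MMP1 was at 5.737 to 12.22 in exposed skin with a median of 10.25, against 5.09, 5.28 and 5.08 in sham skin (4.43 ± 0.55, 21.5-fold, adjusted p = 5.97e-05). ARG1 was at 6.331 to 12.45 in exposed skin and at 4.82 to 5.077 in sham skin (5.05 ± 0.74, adjusted p = 0.000221), and the ARG1 difference was 3.23 with the sacrifice day in the fit. For both genes the exposed arrays spread widely, but none overlapped the sham arrays. TNC (2.91 ± 0.35, adjusted p = 5.07e-05), CDA (2.54 ± 0.33, adjusted p = 8.91e-05) and PLAU (1.26 ± 0.18, adjusted p = 0.000183) were also higher without overlap. CXCL2 (3.18), SPP1 (2.44) and SDS (2.43) passed, but had adjusted p of 0.0784, 0.0734 and 0.499 without the sham array of 168 h.

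DPP4, a surface peptidase of dermal fibroblasts and T cells, was at 8.607 to 11.47 in exposed skin and at 7.646 to 7.998 in sham skin (1.86 ± 0.28, adjusted p = 0.000311). Of the 11 resident fibroblast markers it was the 1 that rose, and 5 fell (8.82% of all genes rose and 4.73% fell). Among the markers that fell, DPT, dermatopontin, was at 10.51 to 11.42 in exposed skin and at 11.97 to 12.27 in sham skin (-1.17 ± 0.21, adjusted p = 0.00121). MFAP5, of elastic microfibrils, fell by 0.96 ± 0.13 on the log2 scale (adjusted p = 0.000151).

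The ferritin receptor gene SCARA5 was at 8.618 to 10.33 in exposed skin and at 11.24 to 11.84 in sham skin (-1.90 ± 0.26, adjusted p = 0.000148). The tenascin gene TNXB was at 9.479 to 11.4 in exposed skin and at 11.63 to 12.06 in sham skin (-1.39 ± 0.23, adjusted p = 0.000632), and its difference was -0.80 with the sacrifice day in the fit. QPCT, a glutaminyl cyclase gene, was at 7.053 to 9.618 in exposed skin and at 10.31 to 11.01 in sham skin (-2.46 ± 0.21, adjusted p = 8.92e-07), while the mean of its probe sets gave -0.74. STMN2 remained low (-2.07 ± 0.35, adjusted p = 0.000676). In these 4 genes no exposed array overlapped a sham array.

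Epidermal genes had partly returned by the last time. Of the 9 differentiated keratinocyte genes 6 were lower and 1 higher over 168 to 514 h (median -1.17), but without the sham array of 168 h 0 were lower and 2 higher. KRT1 was at 7.97, 8.67 and 10.22 in exposed skin at 168 h, and at 14.27, 14.27 and 14.30, against 14.23 in sham skin, at 514 h. Its difference over the window was -1.83 ± 0.29 (adjusted p = 0.000411), and -0.10 with adjusted p = 0.937 without the sham array of 168 h. CALML5 was at 13.19, 13.23 and 13.41 in exposed skin at 514 h, against 12.70 in sham skin. KRT2, a keratin of the uppermost epidermis, differed by -3.22 ± 0.49 (adjusted p = 0.000283), with adjusted p = 0.0728 without the sham array of 168 h. IVL, involucrin of the cornified envelope, was the gene that rose (0.94 ± 0.24, adjusted p = 0.0143), and 0 of the 9 were higher without the sham array of 336 or of 514 h.

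Proliferation genes were higher in the late window. Of 25 cell cycle genes 15 rose and 0 fell (median 0.39), against 8.82% of all genes higher and 4.73% lower. Without the sham array of 336 h 9 rose. CCNB1, the mitotic cyclin, was at 9.071 to 10.44 in exposed skin and at 8.71, 8.62 and 9.10 in sham skin (1.03 ± 0.15, adjusted p = 0.000248), with a slight overlap. RRM2, which makes deoxynucleotides, rose by 1.07 ± 0.16 (adjusted p = 0.000283). Of 18 p53 targets 7 rose and 1, DDB2, fell (adjusted p = 0.048; 5 and 0 without the sham array of 168 or of 336 h). The rises included CDKN1A (1.05 ± 0.15, adjusted p = 0.000157) and BAX (0.88 ± 0.17, adjusted p = 0.0017). MGMT remained higher, at 9.764 to 10.77 in exposed and 8.357 to 9.386 in sham skin (1.29 ± 0.15, adjusted p = 5.04e-05).

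**Figure D3:**
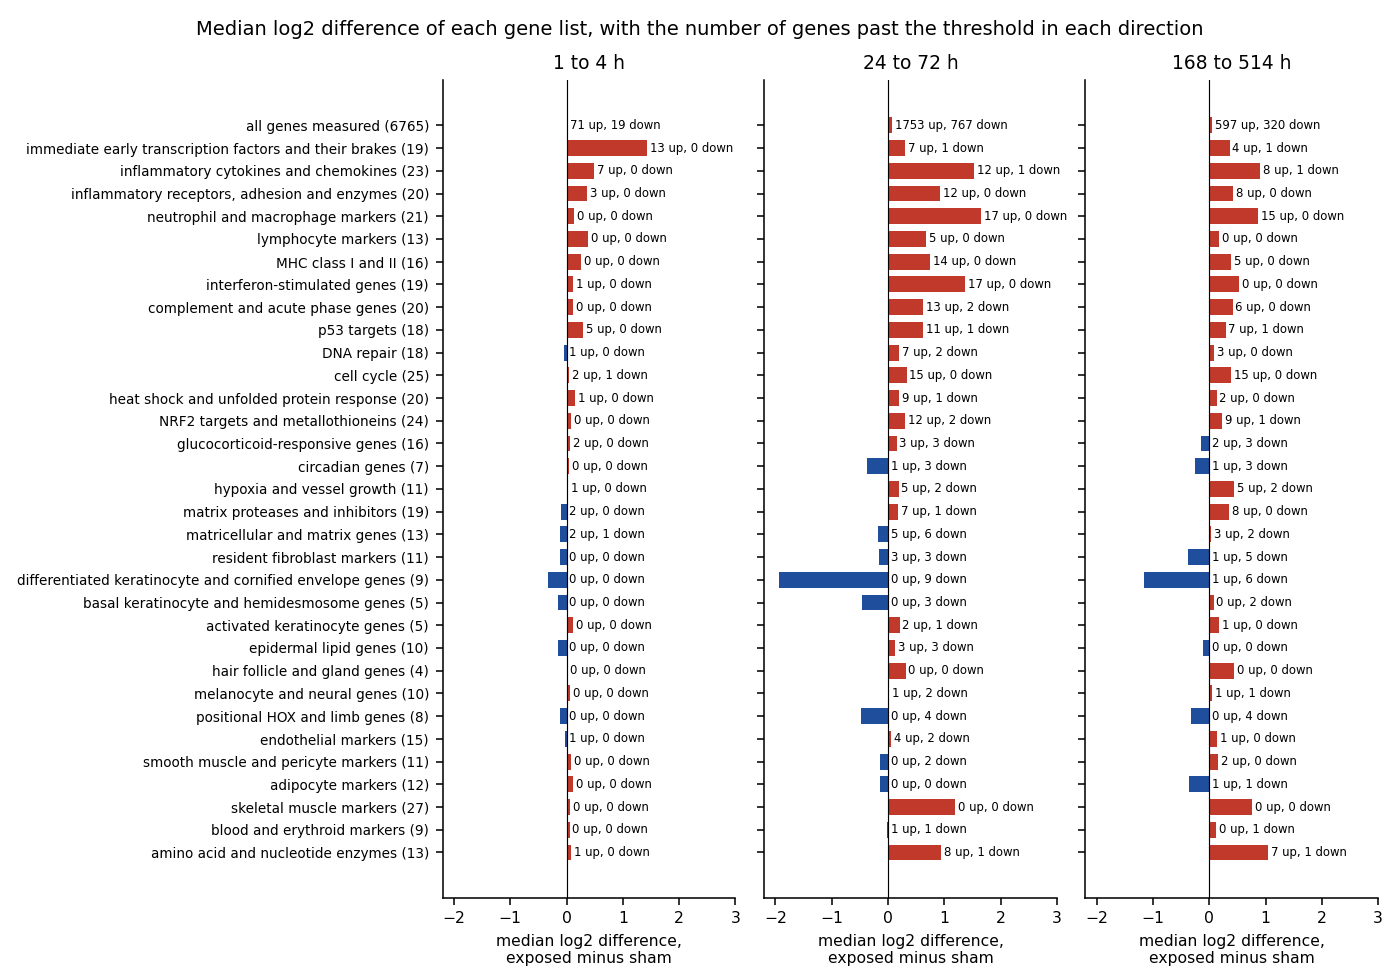
Median log2 difference of exposed minus sham skin (bars, x axis) for the genes of each list and for all genes, in each of the 3 windows, with the numbers of genes past an adjusted p of 0.05 written beside each bar as higher and lower. Immediate early genes have the largest median at 1 to 4 h (1.42), myeloid markers (1.66) and differentiated keratinocyte genes (-1.93) stand out at 24 to 72 h.

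The windows themselves differed. From 1 to 4 h to 24 to 72 h the exposed minus sham difference changed in 2367 probe sets (9.86%), 1445 upward and 922 downward, and in 1287 without the sham array of 2 h and 1350 without that of 24 h. By at least 2-fold 530 (2.21%) changed. The largest upward changes among named genes were those of ARG1, PPBP and CXCL8, and the largest downward change was that of SULT1E1. From 24 to 72 h to 168 to 514 h it changed in 411 probe sets (1.71%), 247 upward and 164 downward, 126 of them (0.525%) by at least 2-fold, and in 15 without the sham array of 514 h. PPBP, PTX3, CCL19, SLC11A1 and CFB came down in this step, and the epidermal genes SERPINB7, SPINK5, KLK7 and CALML5 came up. Without the sham array of 514 h SERPINB7 (adjusted p = 0.198), SPINK5 (0.07), CALML5 (0.602), PPBP (0.204), PTX3 (0.093), CCL19 (0.16), SLC11A1 (0.0649), KLK7 (0.221) and CFB (0.102) missed the threshold.

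The sham animals also give a view of interferon and antigen presentation genes in exposed animals. At 24 to 72 h 17 of 19 interferon-stimulated genes were higher in exposed than in sham skin and 0 were lower (median 1.37), with 9 higher without the sham array of 24 h. The mean level of the list was 8.897 to 10.69 in exposed skin and 7.983 to 8.644 in sham skin. In the fit of all 63 arrays the list's median for control sites minus sham was 0.81. In limma 0 of 19 passed the threshold (0.00417% of all probe sets and 0.0148% of all genes did). At an unadjusted p under 0.05 there were 11 of 19, against 411 of 6765 genes. For exposed minus control sites 9 of 19 genes passed, all higher. In that comparison 2084 of 6765 genes were higher and 967 lower (35.1% of all probe sets passed). These comparisons share arrays and are given only side by side.

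ISG15, a ubiquitin-like protein induced by interferon, was at 10.46 to 13.08 in exposed skin with a median of 11.7, and at 8.73, 8.77 and 10.23 in sham skin at 24, 48 and 72 h. No exposed array overlapped a sham array, and the difference was 2.45 ± 0.48 (adjusted p = 0.000609). For ISG15 control sites minus sham was 1.07 (adjusted p = 0.971) and exposed minus control sites 1.38 (adjusted p = 0.00908). IFIT3, which restrains viral RNA translation, was at 9.884 to 12.1 in exposed skin and at 7.97, 8.23 and 9.21 in sham skin (2.55 ± 0.46, adjusted p = 0.00027). For IFIT3 control sites minus sham was 1.27 and exposed minus control sites 1.28 (adjusted p = 0.00271).

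Sham arrays varied in these genes. ISG15 was at 12.22 and 11.96 and IFIT3 at 11.30 and 10.50 in the sham arrays of 4 and 514 h, above the other sham arrays. At 168 to 514 h 0 of 19 interferon genes passed in limma, with 4 at an unadjusted p under 0.05 and a median of 0.54. Without the sham array of 514 h the ISG15 difference of that window, 1.25 with adjusted p = 0.107, was 2.15 with adjusted p = 0.0221. Of 16 genes of MHC class I and II 14 were higher at 24 to 72 h and 0 lower (median 0.75), but 5 without the sham array of 72 h. For that list control sites minus sham had a median of 0.45, with 0 of 16 past the threshold in limma. At an unadjusted p under 0.05 there were 11 of 16, against 411 of 6765 genes. Exposed minus control sites had a median of 0.22, and 4 of 16 passed, all higher, against 2084 higher and 967 lower of 6765 genes. TAP1, the peptide transporter of class I loading, rose by 1.64 ± 0.27 (adjusted p = 0.000129), and by 0.65 over all its probe sets.

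**Figure D4:**
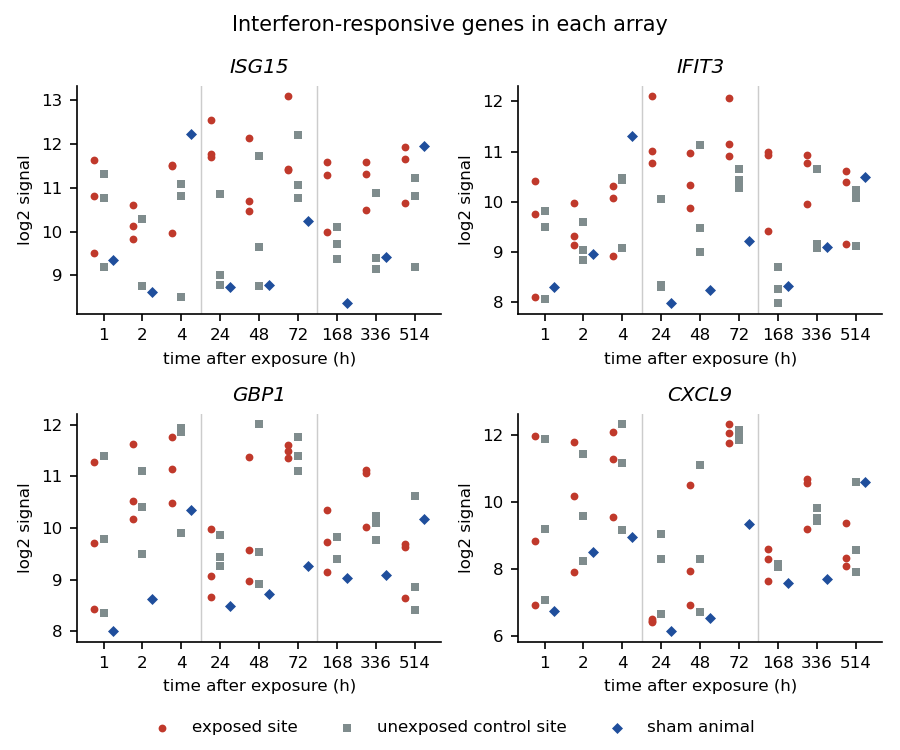
Log2 signal (y axis) of ISG15, IFIT3, GBP1 and CXCL9 at the 9 times (x axis, hours) in exposed sites, control sites of the exposed animals and sham skin, 1 point per array. The sham arrays of 4 and 514 h lie above the other sham arrays for ISG15 and IFIT3, and control sites overlap exposed sites for GBP1 and CXCL9.

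For some genes that differed between exposed and sham skin, exposed and control sites lay close together. Of the genes past the threshold over all 9 times, 85 higher and 37 lower ones had an exposed minus control difference under 25% of their exposed minus sham difference. GBP1, an interferon-induced GTPase, was at 8.445 to 11.76 in exposed skin with a median of 10.18, and at 8.003 to 10.34 with a median of 9.042 in sham skin. Its exposed minus sham difference was 1.16 ± 0.29 (adjusted p = 0.00476), that of control sites minus sham 1.07 (adjusted p = 0.416) and that of exposed minus control sites 0.09 (adjusted p = 0.814). CXCL9, a T cell chemokine, differed by 1.34 ± 0.49 (adjusted p = 0.0426) from sham, a call lost when any 1 of 19 single arrays was left out (adjusted p = 0.0508 to 0.107). For CXCL9 control sites minus sham was 1.49 and exposed minus control sites -0.16. MFAP2, of elastic microfibrils, fell by 0.42 on the log2 scale (adjusted p = 0.00125).

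Few genes passed the threshold between control sites and sham. In the fit of all 63 arrays 5 of 23999 probe sets (0.0208%) passed over the 9 times, and of 6765 genes 3 (0.0443%) did, which were named after their values were seen. At an unadjusted p under 0.05 there were 806 genes, among them 23 of 27 muscle genes and 10 of 16 MHC genes. NME6 and SPATA4 were higher by 0.27 and 0.20 in control than in sham skin (adjusted p = 0.0219 and 0.0450), with exposed minus sham differences of 0.26 and 0.22 (adjusted p = 0.000185 and 0.000517).

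The third was HOXA9, a positional homeobox gene, for which the choice of comparator mattered. HOXA9 was at 6.26 to 9.351 with a median of 7.853 in exposed skin, at 8.678 to 10.33 with a median of 9.665 in control sites, and at 7.185 to 8.657 with a median of 7.892 in sham skin. Control sites lay above every sham array, and exposed sites lay over the sham range and beyond it on both sides. Exposed minus sham was -0.06 ± 0.15 (adjusted p = 0.808), exposed minus control sites -1.80 (adjusted p = 3.68e-16, in a comparison with 37.0% of probe sets called), and control sites minus sham 1.74 (adjusted p = 2.10e-09). The p-values with control sites treat sites of the same animal as independent. By window exposed minus sham was 0.10, -0.51 and 0.22 (adjusted p = 0.923, 0.156 and 0.647), against exposed minus control differences of -1.34, -2.25 and -1.81.

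CKM, the muscle creatine kinase gene, passed against control sites but not against sham at 168 to 514 h. It was at 6.05 to 13.75 in exposed skin, and at 8.61, 8.99 and 9.18 in sham skin (0.09 ± 0.99, adjusted p = 0.968), while exposed minus control sites was -2.37 (adjusted p = 0.0316, in a comparison with 21.9% called) and control sites minus sham 2.46 (adjusted p = 1.0). Over this window the mean of the 27 muscle genes was 7.333 to 11.05 in exposed arrays, 7.473 to 12.8 in control arrays and 7.545 to 7.609 in the sham arrays.

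**Figure D5:**
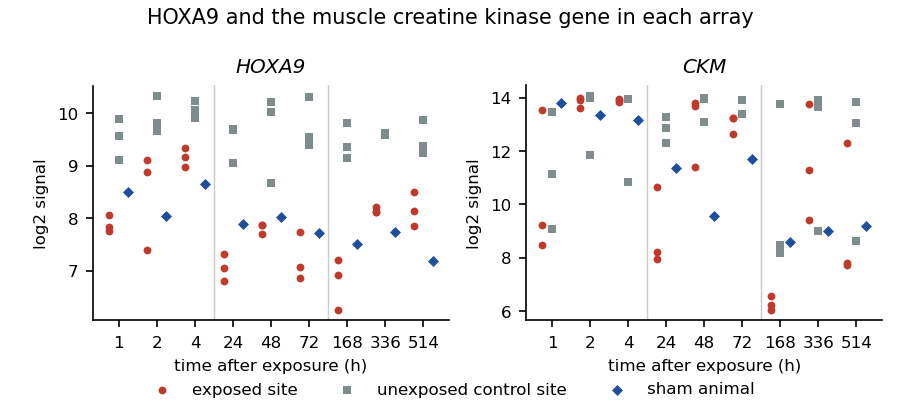
Log2 signal (y axis) of HOXA9 and CKM at the 9 times (x axis, hours) in exposed sites, control sites of the exposed animals and sham skin, 1 point per array. HOXA9 is at 8.678 to 10.33 in control sites and at 7.185 to 8.657 in sham skin, while CKM spreads over several log2 units within groups.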

How the data were processed

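The authors deposited log2 signals for each probe set of a porcine expression array, and the submitters' processing notes name RMA and Partek without version. The authors' values were used as deposited, without further scaling. Of 24123 probe sets 124 array controls were left out and 23999 were tested. The supplied array annotation gave 1 symbol to 10069 probe sets and several to 198, and 13732 have no name here. Of the 10069, 9961 matched RefSeq genes of Sscrofa11.1 by gene number. Of 6765 genes 2261 had several probe sets, and the one with the highest mean was used.

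The 36 arrays were fitted in limma 3.58.1 (R 4.3.3) with 1 mean per group and time (18 residual and 3.25 prior degrees of freedom). Window values are unweighted means over times of exposed minus sham, tested two-sided with Benjamini-Hochberg adjustment at 0.05. Values for control sites came from a fit of all 63 arrays. That fit had no term for the animal, so it treated exposed and control sites of the same animal as independent. Muscle content and 3 prime to 5 prime ratios were compared by exact permutation within times. The SD of the difference between 2 exposed arrays of a time over probe sets was 0.251 to 0.429.

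The members, the gene lists and the rule for naming genes were chosen with earlier results of these data known. The naming rule took genes that passed and kept their sign at all 3 times of a window, the 12 with the largest rise and the 12 with the largest fall. It also took 10 each way over all 9 times, 5 each way for changes between windows and up to 3 members of each list and window. Of genes past the threshold against sham, it took the largest whose exposed minus control difference was under 25% of that size. It also took the largest that passed against control sites but not against sham. List counts are over 1 probe set a gene, and members named beyond the rule come from the lists. Alternatives were other fits (day of sacrifice, extraction or in vitro transcription as a factor, time as a factor, each window alone, the spread of all 63 arrays, a variance trend, the muscle score as a covariate), the mean over a gene's probe sets, a filter on dim probe sets, renewed quantile normalization, a 2-fold minimum and leaving out each array. On simulated data with the same groups and independent noise the procedure recovered 56% of probe sets changed by 0.5 on the log2 scale and 90% of those changed by 1. Promoter motifs were not analysed here.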

Additional observations from a re-analysis of the deposited data

Results flagged for a closer look

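The effect of exposure relative to sham differed between windows in 2367 probe sets from 1 to 4 h to 24 to 72 h, by limma's test of the change itself with an adjusted p under 0.05. Among named genes the change was 5.97 for the arginase gene ARG1, 4.93 for the platelet chemokine gene PPBP, 4.78 for the neutrophil chemokine gene CXCL8, 4.08 for the collagenase gene MMP1 and 3.94 for the matrix gene TNC, all on the log2 scale. It was -3.20 for SULT1E1, -2.87 for SERPINB7, -2.64 for CALML5, -2.59 for STMN2 and -2.41 for EGR1. The MMP1 change was 2.803 with adjusted p = 0.0651 without the sham array of 2 h, in which MMP1 was at 9.03. The EGR1 change was -1.96 with adjusted p = 0.0644 without the sham array of 1 h.

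From 24 to 72 h to 168 to 514 h the effect changed in 411 probe sets. The change was 2.78 for LOC396867, 2.55 for SERPINB7, 2.27 for SPINK5, 1.82 for KLK7 and 1.73 for CALML5. It was -3.37 for PPBP, -2.80 for PTX3, -2.38 for the lymphoid chemokine gene CCL19, -1.76 for SLC11A1 and -1.73 for CFB. Without the sham array of 514 h 9 of these 10 missed the threshold, and LOC396867 did so without that of 336 h (1.58, adjusted p = 0.124). CALML5 also missed it without the sham array of 24, 48, 72 or 336 h, without the 3rd exposed array of 24 h or without the 1st of 72 h (adjusted p = 0.0501 to 0.161), KLK7 and PPBP without that of 24 or 336 h, and CCL19 without that of 336 h (adjusted p = 0.0534).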

How the results depend on the processing

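Of 266 calls of named genes 148 kept their direction and passed in every alternative fit that was run for them, and 0 reversed. The 2-fold minimum was applied to counts only, the filter on dim probe sets kept 260 of the calls, and fits of 1 window alone could be made only for calls of that window. The number of probe sets was 866 at 1 to 4 h with the sacrifice day as a factor (395 higher and 471 lower, against 171 and 129), 77 with that window fitted alone and 71 with a change of at least 2-fold. With the in vitro transcription day as a factor it split into 158 higher and 188 lower. At 24 to 72 h 824 changed by at least 2-fold. At 168 to 514 h 1552 passed with the extraction day, 885 with the sacrifice day and 313 at 2-fold. Over all 9 times 219 passed at 2-fold. Of changes between windows 530 from early to middle passed at 2-fold, and from middle to late 112 passed with time as a factor, 1301 with the sacrifice day and 126 at 2-fold.

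Leaving out 1 array at a time gave 75 to 441 probe sets at 1 to 4 h, 4521 to 6887 at 24 to 72 h, 692 to 2861 at 168 to 514 h and 5415 to 7526 over all times. For the changes it gave 1287 (without the sham array of 2 h; 1350 without that of 24 h) to 2651, and 15 (without the sham array of 514 h) to 1005 (without that of 168 h), with 161, 174 and 82 without those of 24, 48 and 336 h. The array without which most named calls were lost was the sham array of 168 h (45 of 123 calls), then that of 4 h (31 of 83). The muscle score difference was 0.397 to 0.76 over these fits.

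No paired analysis was possible because sham animals are other animals than the exposed ones. The fit with the sacrifice day, which sets a sham array beside the 3rd exposed array at 8 of 9 times and leaves out 24 h, is the nearest to it. With 1 sham array a time its own spread is unmeasured, sham animal and sham treatment cannot be told apart, and leaving it out removes its time. Dim probe sets can be compressed by RMA, which was not measured here.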

Other observations

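Some clock genes and positional genes also differed. Of 18 circadian genes listed 7 were measured. At 24 to 72 h 1 of these was higher and 3 lower (25.9% of all genes were higher and 11.3% lower). RORA was at 7.259 to 7.999 in exposed skin and at 9.58, 9.52 and 8.95 in sham skin (-1.78 ± 0.17, adjusted p = 2.23e-07 in limma), without overlap. The period length gene CRY2 and the clock output gene DBP fell by 0.92 ± 0.12 and 0.79 ± 0.12 on the log2 scale. NFIL3, a repressor that binds the same sites as DBP, rose by 1.02 ± 0.28 (adjusted p = 0.00787). At 1 to 4 h 0 of the 7 passed and 5 had an unadjusted p under 0.05, against 877 of 6765 genes. Of 8 HOX and limb genes 4 were lower and 0 higher at 24 to 72 h. At 168 to 514 h 4 were lower and 0 higher (4.73% of all genes were lower), but 1 without the sham array of 168 h or without that of 336 h. HOXD12 fell by 0.99 ± 0.20 and MEIS1, a HOX cofactor gene, by 0.93 ± 0.18 at 24 to 72 h. A dimmer HOXD12 probe set did not fall, with 0.02 (adjusted p = 0.872 in limma) in that window. At 168 to 514 h it was higher by 0.24 (adjusted p = 0.0303).

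UCHL1, a ubiquitin hydrolase gene known from neurons, was at 7.244 to 8.705 in exposed skin and at 6.15, 6.55 and 6.97 in sham skin at 168 to 514 h (1.37 ± 0.21, adjusted p = 0.000357), without overlap. AREG, a ligand of the EGF receptor, was at 6.794 to 8.717 in exposed skin and at 5.963 to 6.601 in sham skin (1.37 ± 0.23, adjusted p = 0.000632), with adjusted p = 0.158 without the sham array of 168 h.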
